A study of Mus musculus with 12 samples.

Results

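Collagens are the main structural proteins of the extracellular matrix, and each collagen molecule is a triple helix wound from chains that separate genes encode. The collagen chain genes measured here were all genes whose symbol has the form Col, a type number, a and a chain number: 42 of the 18193 genes measured, read by 82 of 34945 probe sets with a single gene symbol. Where a gene had several probe sets, the brightest on average was used and the others served as a check. By type, 11 were fibrillar chains, 8 were basement membrane chains and 23 were others, among them 5 chains of type VI, 9 fibril-associated chains and 4 transmembrane chains.

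Transcript levels were measured with biotin-labelled RNA on 12 Affymetrix arrays of skeletal muscle from C57Bl/6 mice, housed in groups and feeding freely, in a series about insulin resistance. All mice ate chow, with 13% of calories from fat, until the age of 6 weeks. Then 4 samples came from mice that stayed on chow, 4 from mice given a high-fat diet, with fat supplying 46% of calories, over 5 days, and 4 from mice kept on it for 42 days. The labels name no sex, no particular muscle, no batch and no sampling age for the chow group, and they do not say that replicates were separate animals, so p-values measure only the spread between these samples. Since both diet groups changed diet at 6 weeks, the 42-day mice were older than the 5-day mice. Between those groups age and time on the diet cannot be told apart, and age may also differ from chow.

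In muscle, fibroblasts of the connective tissue sheaths make most of the fibrillar collagen, chiefly types I and III, with type V built into the same fibrils. Type IV chains form the network of the basement membrane around each muscle fibre and capillary, and types XV and XVIII lie where that membrane meets the connective tissue. Type VI forms beaded filaments next to the basement membrane. Of the fibril-associated collagens, type XII sits on fibril surfaces and type XXII is found where muscle joins tendon.

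Values were deposited log2 RMA signals, so a difference of 1 is a doubling. The median signal of an array was 7.67 ± 0.019 in the chow group (SD, n = 4), 7.61 ± 0.017 after 5 days and 7.67 ± 0.020 after 42 days. Array data carry no read depth, so the precision is set by how many arrays there were. Skeletal muscle markers were bright: the mean of 8 of them ran from 15.14 to 15.18 on chow, 15.16 to 15.17 at 5 days and 15.16 to 15.19 at 42 days. These levels are close to the highest value on any array, 15.459, so a change could be hard to see. In the comparisons with chow 0 passed the test. At limma's unadjusted p under 0.05, 1 (Mb) was higher and 0 lower in each, where 10.6% and 8.43% of all genes were higher. Mb was 0.14 higher at 5 days and 0.16 at 42 days, and its arrays did not overlap chow at either time. Of the collagen genes, 22 lay below the median signal of all genes and 7 below the 25th percentile (Col24a1, Col6a5, Col9a2, Col13a1, Col17a1, Col19a1 and Col26a1). In the bulk tissue, more cells of a type and more RNA per cell cannot be told apart. Both diet groups were compared with the same chow arrays.

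Against chow, the chains abundant in muscle connective tissue lay higher in both diet groups, with few of them past the test. A gene passed at an adjusted p under 0.05 by limma, adjusted over all genes by Benjamini-Hochberg. At 5 days, 1 of 42 collagen genes rose (Col5a2) and 0 fell, or 2.38%, where 3.8% of all genes passed (1.6% higher, 2.2% lower), and with arrays centred on their medians 11 rose and 0 fell. At 42 days 3 rose (Col1a2, Col5a2 and Col12a1) and 1 fell (Col7a1), or 9.52%, where 5.56% of all genes passed (2.12% higher, 3.44% lower). The median log2 fold change of the 42 genes was 0.09 at 5 days and 0.08 at 42 days, and that of all genes was -0.01 at both times. The value was higher than on chow in 29 of 42 genes at 5 days and in 31 at 42 days, where 47% and 45.1% of all genes were higher. Before adjustment, 15 collagen genes were higher and 6 lower with p under 0.05 at 5 days (limma), where 10.6% and 14.1% of all genes were, and 11 and 2 at 42 days, where 8.43% and 13.4% were. With arrays centred on their medians, 1353 of all genes passed at 5 days, 84.3% of them higher. In the deposited values 692 passed, 42.1% of them higher.

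**Figure D1:**
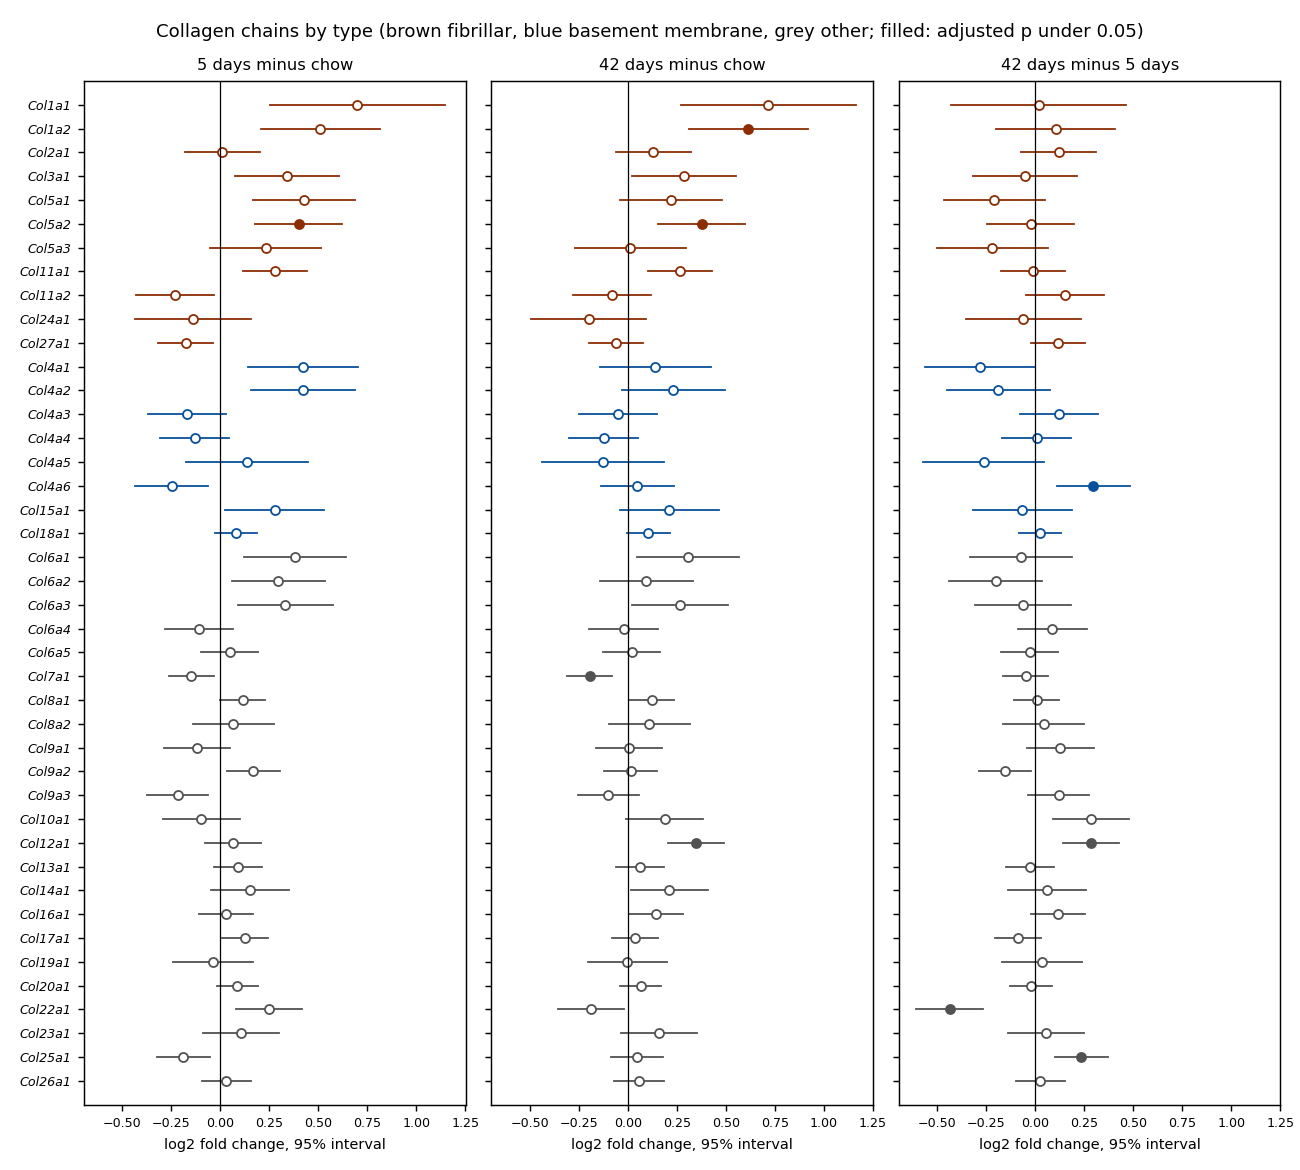
Log2 fold changes (x axis) of the 42 collagen genes (y axis) in the 3 comparisons, with 95% intervals from limma. Brown marks fibrillar, blue basement membrane and grey other chains, and filled points have an adjusted p under 0.05. Col1a1, at 0.70 and 0.72, is farthest right in both comparisons with chow.

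For the 33 collagen genes with a window in RefSeq's promoter table (GRCm38.p6), the 250 bases before the gene's start were read. Those of the genes past the test in any comparison that had a window are shown, to set beside their values, together with Col3a1, the gene next to Col5a2. The windows are chr6:4505368-4505617 (+ strand) for Col1a2, chr1:45311288-45311537 (+) for Col3a1, chr9:108953336-108953585 (+) for Col7a1, chr3:130180595-130180844 (+) for Col25a1 and chrX:141474077-141474326 (- strand) for Col4a6. Each runs 5′ to 3′ and ends at the base before the start. Capitals mark matches on either strand to the CCAAT box, the TATA box letters TATAAA, the GC box letters GGGCGG or the AP-1 site letters TGANTCA, none of which overlapped in these windows.
Col1a2: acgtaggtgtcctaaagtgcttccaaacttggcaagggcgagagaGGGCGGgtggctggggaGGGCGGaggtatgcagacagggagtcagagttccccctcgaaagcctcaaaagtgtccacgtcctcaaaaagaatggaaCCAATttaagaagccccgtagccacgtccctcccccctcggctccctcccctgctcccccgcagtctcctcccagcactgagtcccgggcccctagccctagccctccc
Col3a1: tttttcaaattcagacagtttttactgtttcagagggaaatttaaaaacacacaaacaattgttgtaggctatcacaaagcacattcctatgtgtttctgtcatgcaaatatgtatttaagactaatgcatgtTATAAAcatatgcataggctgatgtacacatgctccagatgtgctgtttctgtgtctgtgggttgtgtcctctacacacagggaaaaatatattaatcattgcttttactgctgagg
Col7a1: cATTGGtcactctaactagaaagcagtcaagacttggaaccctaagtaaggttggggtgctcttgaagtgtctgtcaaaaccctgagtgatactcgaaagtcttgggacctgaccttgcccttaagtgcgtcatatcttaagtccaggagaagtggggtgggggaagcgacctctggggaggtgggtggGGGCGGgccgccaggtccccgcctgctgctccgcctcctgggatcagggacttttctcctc
Col25a1: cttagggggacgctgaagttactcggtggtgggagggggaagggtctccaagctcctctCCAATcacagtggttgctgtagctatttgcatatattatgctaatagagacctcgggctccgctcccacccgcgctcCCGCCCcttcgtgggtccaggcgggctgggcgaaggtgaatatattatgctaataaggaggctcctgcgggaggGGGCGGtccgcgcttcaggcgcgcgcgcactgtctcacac
Col4a6: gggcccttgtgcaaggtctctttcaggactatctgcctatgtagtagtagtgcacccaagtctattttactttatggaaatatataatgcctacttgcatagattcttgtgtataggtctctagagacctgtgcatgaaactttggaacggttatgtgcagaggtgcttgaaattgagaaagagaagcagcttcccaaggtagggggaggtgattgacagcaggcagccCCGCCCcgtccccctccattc
The Col1a2 window held GGGCGG 200 and 183 bases before the start and CCAAT at 105, and its GC content was 62%. The Col3a1 window held TATAAA 112 bases before the start and was 35.2% GC. The Col7a1 window held the CCAAT box on its other strand, read here as ATTGG, 245 bases before the start and GGGCGG at 56. In Col25a1 CCAAT lay at 187, the GC box on the other strand, read here as CCGCCC, at 109 and GGGCGG at 35, and in Col4a6 CCGCCC lay at 16. Over the 33 collagen windows, GGGCGG was found in 60.6%, CCAAT in 36.4%, TATAAA in 15.2% and TGANTCA in 3.03%, against 32.7%, 33.8%, 12.4% and 6.75% of all 32851 windows of that length. The median GC content was 59.6% for the collagen windows and 52.4% for all. A match describes these letters and shows no binding.

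Among the fibrillar chains, 1 of 11 (9.09%) rose at 5 days and 2 (18.2%) rose at 42 days, where 1.6% and 2.12% of all genes rose. Their medians were 0.28 and 0.22. Col1a1 and Col1a2 encode the chains of type I collagen, the main fibril of muscle sheaths and tendon. Col1a1 was at 10.71, 11.26, 10.68 and 11.32 in the chow arrays, 11.73, 12.06, 10.92 and 12.06 at 5 days, and 11.83, 11.67, 11.68 and 11.66 at 42 days (replicates 1 to 4). All 42-day arrays lay above all chow arrays, while 5-day replicate 3 lay among them. Its group means were 10.99 ± 0.35, 11.69 ± 0.54 and 11.71 ± 0.08 (SD, n = 4). Its differences from chow, 0.70 ± 0.21 (SE; 1.62-fold) and 0.72 ± 0.21 (1.64-fold), were the largest of the collagen genes in both comparisons, and neither passed (limma, adjusted p = 0.0686 and 0.0589). In a fit over all probe sets in place of all genes, the 42-day value passed (limma, adjusted p = 0.0392). A further Col1a1 probe set gave 0.45 at 5 days and 0.14 at 42 days, so the 42-day size differed between probe sets.

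Col1a2 rose at 42 days. It was at 12.12, 12.34, 11.92 and 12.53 on chow, 12.77, 13.02, 12.27 and 12.89 at 5 days, and 12.96, 12.76, 12.78 and 12.87 at 42 days. The 42-day arrays lay above every chow array, and 5-day replicate 3 again lay within the chow range. The rise was 0.61 ± 0.14 (SE), or 1.53-fold, with adjusted p = 0.0256 by limma, and the 5-day difference was 0.51 ± 0.14 (1.42-fold, adjusted p = 0.0574). A second bright probe set of Col1a2 was 0.57 and 0.56 higher. The 42-day call ended without chow replicate 3 (adjusted p = 0.0902) and without 42-day replicate 1, 2 or 4 (0.0711, 0.0518 and 0.0665). It also ended with the mean of its probe sets (0.0618) and with a trended and robust prior (0.0620).

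Col5a2, a chain of the type V collagen inside type I fibrils, was the collagen gene past the test at both times. It was at 10.02, 10.07, 10.04 and 10.31 on chow, 10.49, 10.68, 10.15 and 10.72 at 5 days, and 10.51, 10.56, 10.43 and 10.46 at 42 days. The 42-day arrays lay above all chow arrays, and at 5 days replicate 3 lay below chow replicate 4. It rose 0.40 ± 0.10 (1.32-fold) at 5 days and 0.38 ± 0.10 (1.30-fold) at 42 days (SE; limma, adjusted p = 0.0476 at both). Both calls stood close to the threshold: leaving out single arrays, the 5-day one was kept without chow replicate 4 or 5-day replicate 3 and ended without any of the other 10 arrays (adjusted p up to 0.137). The 42-day one ended without any 42-day array, chow replicates 1, 2 or 3, or 5-day replicate 1 (up to 0.143). The 5-day call also ended with quantile normalization (adjusted p = 0.121), cyclic loess (0.114), the mean of probe sets (0.0948), the 8 arrays compared (0.103) and array weights (0.0630), and the 42-day one with centring (0.0529) and the mean of probe sets (0.268). A dimmer second probe set gave 0.19 and 0.02.

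The partner chains Col5a1 and Col5a3 and the type III chain Col3a1 did not pass. Col5a1 was at 9.29 ± 0.19, 9.72 ± 0.29 and 9.51 ± 0.09 (SD, n = 4), with differences of 0.43 ± 0.12 (adjusted p = 0.0605) and 0.22 ± 0.12 (0.32) from chow. Col5a3 differed by 0.23 ± 0.13 and 0.01 ± 0.13 (limma, adjusted p = 0.29 and 0.975). Col3a1, the finer fibril found with type I, was at 12.92, 12.90, 12.72 and 13.23 on chow, 13.29, 13.39, 12.89 and 13.57 at 5 days, and 13.35, 13.28, 13.10 and 13.19 at 42 days. Both diet groups overlapped the chow arrays, and its differences were 0.34 ± 0.12 and 0.29 ± 0.12 (adjusted p = 0.113 and 0.192). The gene next to Col3a1 in the RefSeq table, with no protein-coding gene between, is Col5a2. Col24a1, a minor fibrillar chain at the 4.29th percentile of signal, had the lowest 42-day value of the collagen genes, -0.20 ± 0.14 (adjusted p = 0.436). Col11a1, named after its values were seen, was 0.28 ± 0.08 higher at 5 days and 0.27 ± 0.08 at 42 days (adjusted p = 0.0543 and 0.0548), and all its 42-day arrays, at 7.71 to 7.86, lay above the chow arrays, at 7.39 to 7.60. In a fit over all probe sets its 42-day value passed (limma, adjusted p = 0.0395). So did that of its dimmer probe set, at 0.785 (0.0165).

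**Figure D2:**
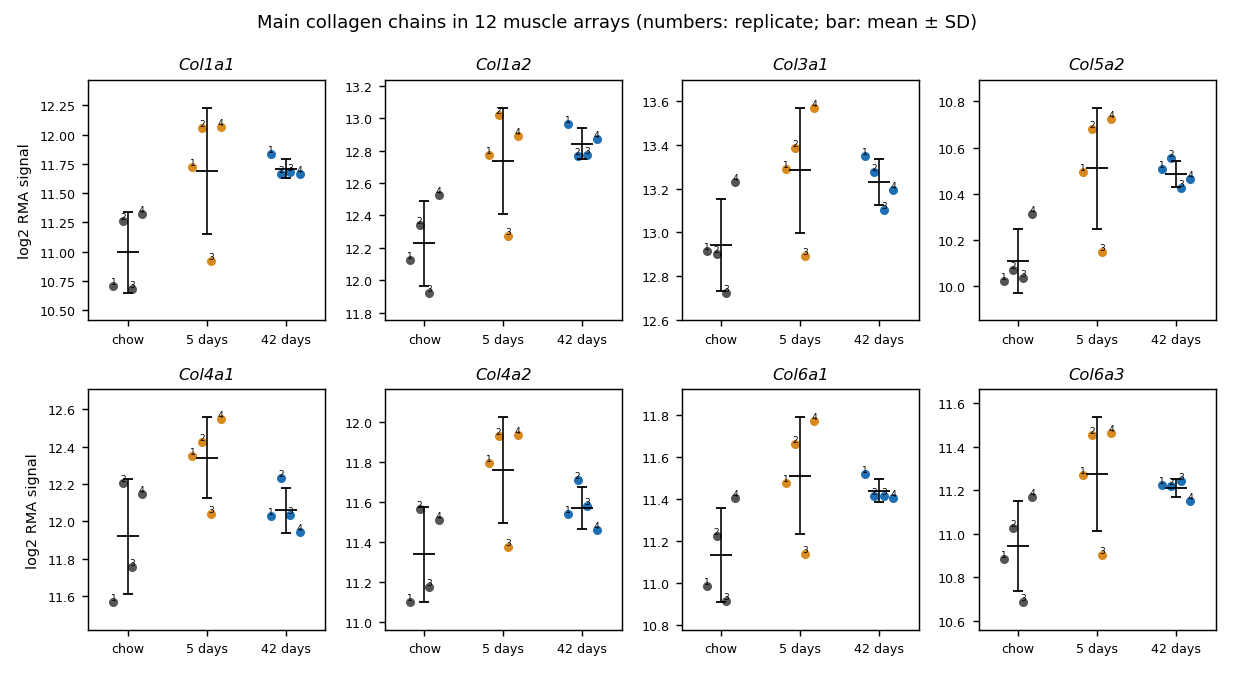
Log2 RMA signal (y axis) of 8 main chains in each array, by group (x axis), with the replicate number at each point and bars for mean ± SD (n = 4). In all 8 panels 5-day replicate 3 is the lowest of its group, and the 42-day arrays lie closest together.

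By the probe set used, none of the 8 basement membrane chains passed the test against chow. By limma, 3 were higher and 1 lower at an unadjusted p under 0.05 at 5 days, and 0 either way at 42 days. Of all genes, 10.6% were higher and 14.1% lower at 5 days, and 8.43% and 13.4% at 42 days. Their median difference was 0.11 at 5 days and 0.08 at 42 days. Col4a1 and Col4a2 encode the 2 chains of the common type IV network and are neighbours read in opposite directions. Col4a1 was at 11.57, 12.21, 11.75 and 12.15 on chow, 12.35, 12.42, 12.04 and 12.55 at 5 days, and 12.03, 12.23, 12.03 and 11.94 at 42 days. At 5 days 3 arrays lay above all chow arrays and replicate 3 did not, and the 42-day arrays lay within the span of the chow group apart from replicate 2. The differences were 0.42 ± 0.13 at 5 days (1.34-fold, limma adjusted p = 0.0785) and 0.14 ± 0.13 at 42 days (0.586). Col4a2 was 0.42 ± 0.12 and 0.23 ± 0.12 higher (adjusted p = 0.0663 and 0.294). A second Col4a1 probe set gave 0.41 at 5 days and 0.47 at 42 days. In a fit over all probe sets that 42-day value just passed (limma, adjusted p = 0.04998).

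The remaining basement membrane chains did not pass against chow either. Col15a1, whose collagen links the basement membrane to nearby fibrils, was 0.28 ± 0.12 and 0.21 ± 0.12 higher (limma, adjusted p = 0.167 and 0.324). Col18a1, the source of the fragment endostatin, was at 8.83 to 8.88 on chow, 8.83 to 8.99 at 5 days and 8.93 to 9.03 at 42 days. Its 42-day arrays did not overlap chow, yet the difference was 0.11 ± 0.05 (adjusted p = 0.243). A further Col18a1 probe set, in a fit over all probe sets, was 0.31 higher at 42 days (adjusted p = 0.0151). Col4a3 and Col4a4, neighbours that encode chains best known from the kidney filter, were at -0.17 and -0.13 at 5 days. These Col4a3 and Col4a4 values did not pass (limma, adjusted p = 0.27 and 0.341). At 42 days they were at -0.05 and -0.12 (adjusted p = 0.817 and 0.42). The Col4a4 arrays at 42 days, at 7.61 to 7.745, lay below all chow arrays, at 7.788 to 7.834. Of the 8 chains, 1 was thus above and 1 below all chow arrays at 42 days (25%, where 13.9% of all genes did not overlap).

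Type VI collagen joins the basement membrane to the matrix, and faults in its chains cause muscular dystrophies. None of its 5 chains passed. By limma 3 were higher at an unadjusted p under 0.05 at 5 days and 2 at 42 days, where 10.6% and 8.43% of all genes were. Col6a1 was at 10.99, 11.22, 10.92 and 11.40 on chow, 11.48, 11.66, 11.14 and 11.77 at 5 days, and 11.52, 11.42, 11.42 and 11.41 at 42 days. The 42-day arrays sat just above the highest chow array, and 5-day replicate 3 lay among the chow arrays. Its differences were 0.38 ± 0.12 (1.30-fold) and 0.31 ± 0.12 (1.24-fold; adjusted p = 0.0823 and 0.156). Col6a3, the largest chain, was 0.33 ± 0.11 and 0.27 ± 0.11 higher, and its groups overlapped (adjusted p = 0.0986 and 0.187). Col6a2 was 0.30 ± 0.11 and 0.09 ± 0.11 higher (adjusted p = 0.122 and 0.678). The other type VI chains, Col6a4 and Col6a5, were at -0.11 and 0.05 at 5 days.

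The main chains as a group shared an order of arrays. These are 13 genes listed as the chief chains of muscle matrix (Col1a1, Col1a2, Col3a1, Col5a1, Col5a2, Col5a3, Col4a1, Col4a2, Col15a1, Col18a1, Col6a1, Col6a2 and Col6a3). The list was chosen with earlier results of these data known, so the shares below only describe it. All 13 had higher values than chow at both times, with medians of 0.38 and 0.23. Of them 1 (7.69%) rose at 5 days and 2 (15.4%) at 42 days, where 1.6% and 2.12% of all genes rose. By limma 11 and 6 were higher at an unadjusted p under 0.05, where 10.6% and 8.43% of all genes were. The other 29 collagen genes had medians of 0.03 and 0.04, with 16 and 18 higher. Within the 5-day group replicate 3 was lowest in 13 of 13 main chains and replicate 4 highest in 12, while over all genes replicate 3 was lowest in 25.5%. Within chow, replicate 4 was highest in 11 of 13 and replicates 1 and 3 were lowest in 7 and 6.

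The main chains also differed in spread. The 42-day group had the smallest SD in 12 of 13 and the 5-day group the largest in 12 of 13, where all genes gave 44.2% and 37%. Because the 13 chains shared an order of arrays, they are not 13 separate observations, and the difference in spread was not tested. The median SD of the 13 was 0.21 on chow, 0.27 at 5 days and 0.09 at 42 days, against 0.09, 0.09 and 0.08 for all genes. Groups did not overlap in 5 main chains at 42 days (Col1a1, Col1a2, Col5a2, Col6a1 and Col18a1) and in 0 at 5 days. Over all 42 collagen genes the count without overlap was 3 at 5 days (1 higher, 2 lower), or 7.14%, where 11.8% of all genes did not overlap (5.29% higher, 6.47% lower). At 42 days it was 10 (8 higher, 2 lower), or 23.8%, where the share of all genes was 13.9% (5.19% higher, 8.66% lower).

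**Figure D3:**
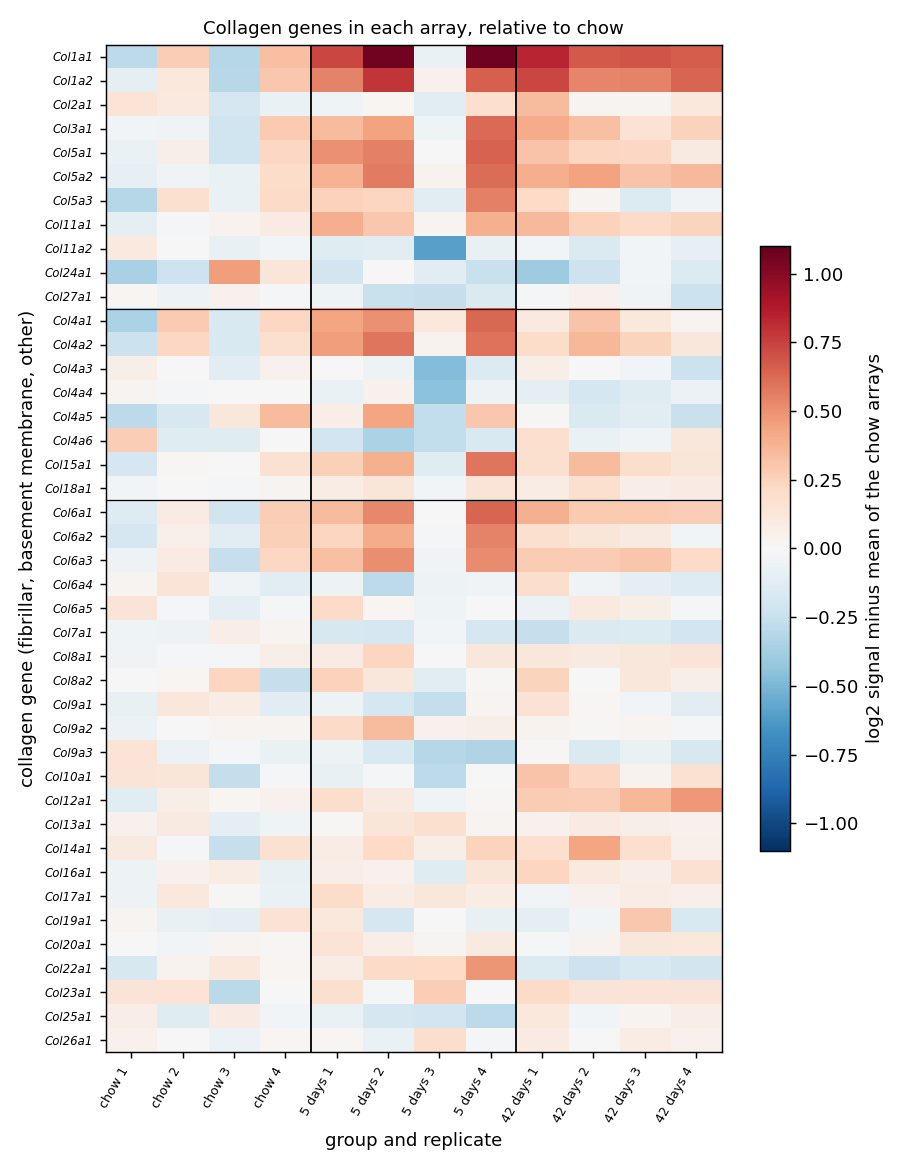
Log2 signal minus the chow mean (colour, red higher and blue lower) of each collagen gene (rows, by type) in each array (columns). 5-day replicate 3 is pale in the red block of main chains where the other 5-day arrays are red.

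Among the fits without a single array, the 5-day count moved most when 5-day replicate 3 was left out. Without that array 11 collagen genes passed, all higher: Col1a1, Col1a2, Col3a1, Col5a1, Col5a2, Col11a1, Col4a1, Col4a2, Col15a1, Col6a1 and Col6a3. Over all genes 474 passed without it, 255 of them higher, against 692 with all arrays. Without that array the median of the main chains was 0.50. With all arrays kept, the collagen count was 11 with arrays centred on their medians, where 1353 of all genes passed, 1141 of them higher. It was 10 with the replicate number as a block, where 880 passed, 332 of them higher. The collagen count was 2 without chow replicate 4 or 5-day replicate 1, and 0 without chow replicates 1, 2 or 3, 5-day replicates 2 or 4, or any 42-day array. Over all genes 310 and 790 passed in the fits with 2, and 6 to 517 in those with 0. On the summary of 4 control transcripts, the 3′ signal exceeded the 5′ signal by 1.098 in 5-day replicate 3 and by 0.93 to 1.06 in the others of its group, and its part in the result was not tested. The chow arrays lay at 0.99 to 1.14 and the 42-day arrays at 0.82 to 0.998.

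Among the other chains at 42 days, Col12a1 rose and Col7a1 fell. Type XII collagen coats type I fibrils in tendon, fascia and muscle sheaths. Col12a1 was at 8.13, 8.32, 8.28 and 8.30 on chow, 8.45, 8.35, 8.21 and 8.27 at 5 days, and 8.53, 8.52, 8.62 and 8.73 at 42 days. Every 42-day array lay above all other arrays, and the chow and 5-day arrays overlapped. The 42-day rise was 0.35 ± 0.07 (SE), or 1.27-fold (limma, adjusted p = 0.013), and it passed without each of the 12 arrays in turn. The 5-day value was 0.07 ± 0.07 (adjusted p = 0.566). The next brightest Col12a1 probe set gave 0.16 at 5 days and 0.13 at 42 days and did not pass (adjusted p = 0.394 and 0.496 over all probe sets).

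Col7a1 encodes the anchoring fibril best known from skin. It was at 9.16, 9.16, 9.28 and 9.24 on chow, 9.04, 9.02, 9.18 and 9.02 at 5 days, and 8.960, 9.058, 9.060 and 8.999 at 42 days. All 42-day arrays lay below all chow arrays, and 5-day replicate 3 lay within the chow range. It fell by 0.19 ± 0.05 (1.14-fold) at 42 days (adjusted p = 0.0487, limma), and was at -0.15 ± 0.05 at 5 days (0.115). Without single arrays the 42-day call was kept without chow replicate 1 or 5-day replicate 3 and ended in the other 10 fits (adjusted p up to 0.139). It also ended with arrays centred on their medians (0.0626), with cyclic loess (0.0621) and in a fit of the 8 arrays compared (0.0594).

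In the 23 chains outside the fibrillar and basement membrane types, 0 passed at 5 days. By limma 6 were higher and 3 lower at an unadjusted p under 0.05, where 10.6% and 14.1% of all genes were. The 23 collagen genes not covered by the naming rule, all types together, ranged from -0.23 (Col11a2) to 0.28 (Col11a1) at 5 days and from -0.13 (Col4a5) to 0.27 (Col11a1) at 42 days. Of the chains known from cartilage, named after their values were seen, none passed against chow. At 5 and 42 days Col2a1 was at 0.01 and 0.13, Col9a1 at -0.12 and 0.01, Col9a2 at 0.17 and 0.02, Col9a3 at -0.22 and -0.10, Col10a1 at -0.10 and 0.19 and Col11a2 at -0.23 and -0.08. By limma's unadjusted p, 0.0174 for Col9a2, 0.00886 for Col9a3 and 0.025 for Col11a2, 1 of these was higher and 2 were lower at 5 days, and 0 at 42 days. At 42 days 8.43% of all genes were higher and 13.4% lower. Col11a1, the other type XI chain, is outside that count. It was at 0.28 and 0.27 (limma, unadjusted p = 0.00244 and 0.00332), and all its 42-day arrays lay above the chow arrays.

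Between 42 and 5 days none of the main chains passed the test, and 4 other chains did. The groups compared differ in age as well as in time on the diet. Of 42 collagen genes 3 rose from 5 to 42 days (Col12a1, Col25a1 and Col4a6) and 1 fell (Col22a1), or 9.52%, where 8.52% of all genes passed (2.75% higher, 5.77% lower). Of the genes past that test 32.3% were higher, against 7.45% with arrays centred on their medians and 44.4% after cyclic loess. Groups did not overlap in 6 collagen genes (4 higher, 2 lower), or 14.3%, against 20.4% of all genes (7.17% higher, 13.3% lower). The value was higher at 42 days in 22 of 42, against 52% over all genes. An unadjusted p under 0.05 was met by 4 that were higher and 2 that were lower, where 13.7% and 17.2% of all genes met it. Of the 13 main chains 10 were lower at 42 days, with a median of -0.07, and 0 passed or had an unadjusted p under 0.05 by limma. Col1a1 differed by 0.02, with a 95% interval from -0.43 to 0.46, and Col1a2 by 0.11, from -0.20 to 0.41. Among the main chains the lowest was Col4a1, at -0.28 ± 0.13 (adjusted p = 0.164).

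Col22a1 encodes a fibril-associated chain found where muscle fibres meet tendon. It was at 9.03, 9.24, 9.32 and 9.23 on chow, 9.28, 9.42, 9.42 and 9.69 at 5 days, and 9.050, 8.973, 9.037 and 9.002 at 42 days. The 42-day arrays lay below all 5-day arrays, and the chow arrays overlapped both groups. From 5 to 42 days Col22a1 fell by 0.44 ± 0.08 (SE), or 1.35-fold (limma, adjusted p = 0.0172), the largest difference among the collagen genes. Against chow it was at 0.25 ± 0.08 at 5 days and -0.19 ± 0.08 at 42 days, neither past the test (adjusted p = 0.0817 and 0.183). The call ended without 5-day replicate 2 (0.0572) or 42-day replicate 1 (0.0592). Its other probe sets gave -0.28 and 0.05.

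Col12a1 rose 0.28 ± 0.07 from 5 to 42 days (1.22-fold; limma, adjusted p = 0.0266), while its next probe set gave -0.02. The Col12a1 call ended without 5-day replicates 2 or 3 or 42-day replicates 1, 2 or 4 (adjusted p up to 0.0686), and with quantile normalization (0.0560), cyclic loess (0.0538) or the mean of probe sets (0.178). Col25a1 encodes a transmembrane chain needed for motor nerves to reach developing muscle. It was at 9.14, 8.94, 9.16 and 9.04 on chow, 9, 8.89, 8.86 and 8.79 at 5 days, and 9.19, 9.04, 9.10 and 9.14 at 42 days. The 5-day arrays lay below all 42-day arrays, and the chow arrays overlapped both. Col25a1 rose 0.24 ± 0.06 (1.18-fold, adjusted p = 0.036), and the call ended without 5-day replicates 2, 3 or 4 or any 42-day array (up to 0.111), and with centring (0.0556) or the mean of probe sets (0.109). A dim second probe set gave 0.00.

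Col4a6, the last of the 4, encodes a minor type IV chain. It was at 8.02, 7.62, 7.61 and 7.74 on chow, 7.54, 7.40, 7.48 and 7.58 at 5 days, and 7.93, 7.68, 7.71 and 7.87 at 42 days. The 5-day arrays lay below all others. Col4a6 was at -0.25 ± 0.09 at 5 days against chow, the lowest collagen value of that comparison (limma, adjusted p = 0.103), and rose 0.30 ± 0.09 (1.23-fold, 0.0487) from 5 to 42 days. That call was kept without chow replicate 1 or 3 and ended without any of the other 10 arrays (adjusted p up to 0.146), and its second probe set gave 0.05. It also ended with quantile normalization (adjusted p = 0.128), cyclic loess (0.122) and arrays centred on their medians (0.0574). The Col4a6 call ended as well with the mean of probe sets (0.0683), the most variable probe set of each gene (0.0556) and a fit over all probe sets (0.0516). Its neighbour Col4a5, read in the opposite direction and named after its values were seen, was at -0.26 ± 0.14 in the same comparison (0.228).

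**Figure D4:**
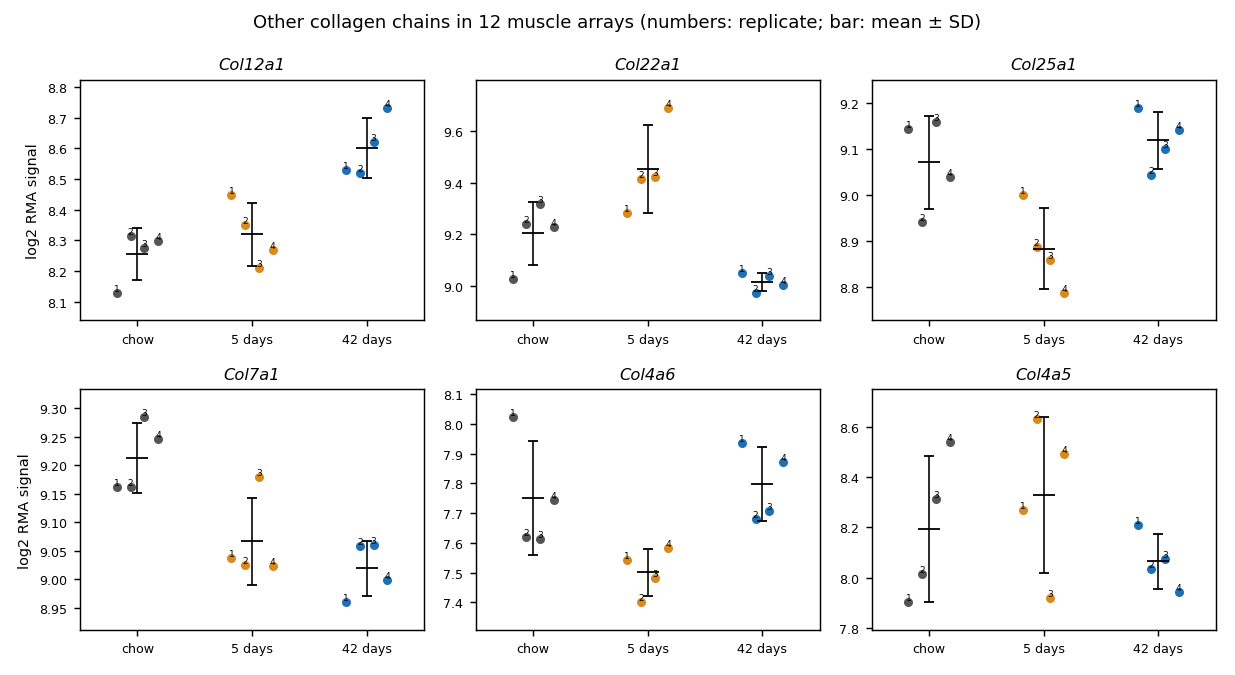
Log2 RMA signal (y axis) of Col12a1, Col22a1, Col25a1, Col7a1, Col4a6 and Col4a5 in each array, by group (x axis), with replicate numbers and mean ± SD (n = 4). Col12a1 is highest at 42 days in every array, and Col22a1 at 42 days lies below every 5-day array.

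For the call across all 4 chains, the number of collagen genes past the test between 42 and 5 days was 0 without 5-day replicate 2 or 42-day replicate 1. It was 1 without 5-day replicate 3 or 42-day replicates 2 or 4, and 2 without 5-day replicate 4 or 42-day replicate 3. Against chow at 42 days the count was 1 without chow replicate 3 or 42-day replicates 1, 2 or 4, and 2 without chow replicate 2, 5-day replicate 1 or 42-day replicate 3. It was 6 without 5-day replicate 3, which added Col1a1 and Col11a1. Over all genes 228 to 400 passed in the 42-day fits with 1, 572 to 857 in those with 2 and 1045 in that with 6. The range over all genes between the times is given with the processing below.

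Of 27 genes with several probe sets, the 40 probe sets not used had the same sign as the one used in 24 at 5 days, 23 at 42 days and 25 between the times. In a fit over all probe sets, 4 of the 40 passed at 42 days, all higher (of Col1a2, Col4a1, Col11a1 and Col18a1), and 0 passed at 5 days or between the times. In that fit the probe sets used for Col1a1 and Col11a1 also passed at 42 days (limma, adjusted p = 0.0392 and 0.0395). That of Col4a6 did not pass between the times (0.0516). These calls thus depended on the set adjusted over.

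The genes that build, bind and break down collagen are read here against the share of all genes past the test, 3.8% at 5 days, 5.56% at 42 days and 8.52% between the times. These lists too were chosen with earlier results of these data known, so the shares only describe them. Partner calls rest on the brightest probe set of each gene. Unlike the collagen calls, they were not checked with other probe sets, other normalizations or arrays left out. Of 19 genes of chain modification and folding, 1 (5.26%) rose at 5 days: Plod2, a lysyl hydroxylase (0.33 ± 0.09, limma adjusted p = 0.0465). By limma 0 of the 19 passed at 42 days against chow. At an unadjusted p under 0.05, 3 were higher and 1 lower, where 8.43% and 13.4% of all genes were. Between 42 and 5 days 2 (10.5%) fell, the prolyl hydroxylase P4ha2 (-0.27 ± 0.06) and the collagen galactosyltransferase Colgalt1 (-0.21 ± 0.06). The list's median was 0.10 at 5 days and 0.07 at 42 days.

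Of 12 genes of propeptide cleavage and crosslinking, 2 (16.7%) rose at 5 days and 3 (25%) at 42 days. Pcolce, which speeds removal of the C-terminal propeptide, rose 0.35 ± 0.08 at 5 days (limma, adjusted p = 0.0368), and Loxl1, a lysyl oxidase-like crosslinking enzyme, rose 0.28 ± 0.07 (0.0374). At 42 days the lysyl oxidase Lox rose 0.52 ± 0.10 (adjusted p = 0.0136), Loxl1 0.29 ± 0.07 (0.0246) and Pcolce2 0.41 ± 0.11 (0.0408). The medians of the 12 were 0.06 and 0.10. From 5 to 42 days Mep1a, a meprin that can cut procollagen, rose 0.27 ± 0.07 (0.0284).

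Of 9 collagen receptor genes, 1 (11.1%) passed in each comparison. Itgb1, the integrin subunit shared by all collagen-binding integrins, rose at 5 days (0.28 ± 0.07, limma adjusted p = 0.0387) and at 42 days (0.47 ± 0.07, 0.00327). From 5 to 42 days the integrin subunit gene Itga2 rose (0.30 ± 0.08, 0.0432). Of 11 genes of collagen degradation, 2 (18.2%) rose at 5 days and 1 (9.09%) at 42 days. The gelatinase Mmp2 rose at both times (0.44 ± 0.12 and 0.43 ± 0.12, adjusted p = 0.0476 and 0.0435), and the inhibitor Timp2 rose at 5 days (0.37 ± 0.09, 0.0456). Of 13 basement membrane partners, 2 (15.4%) rose at 5 days and 1 (7.69%) at 42 days. The laminin chains Lamb2 (0.37 ± 0.08) and Lamc1 (0.34 ± 0.09) rose at 5 days and the nidogen Nid2 (0.49 ± 0.12) at 42 days (adjusted p = 0.0348, 0.0463 and 0.0327).

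Markers of the other cell types of muscle tissue were read against the same shares of all genes. The marker lists were likewise chosen with earlier results of these data known, so the shares only describe them. Marker calls, like partner calls, were not checked with other probe sets, other normalizations or arrays left out. Of 10 tendon cell markers, 0 passed at 5 days (limma; 6 higher and 1 lower at an unadjusted p under 0.05, as 10.6% and 14.1% of all genes were) and 7 (70%) rose at 42 days, against 5.56% of all genes past the test, with medians of 0.25 and 0.58. Tnmd, a tendon membrane protein, was 1.09 ± 0.17 higher at 42 days (adjusted p = 0.00543), and 5 of the 10 rose from 5 to 42 days (50%, against 8.52% of all genes). The mean of the 10 ran from 8.69 to 8.85 on chow, 8.69 to 9.21 at 5 days and 9.14 to 9.45 at 42 days, so the 42-day arrays lay above all chow arrays. The tendon transcription factor gene Scx was at -0.25 ± 0.09 at 5 days and 0.07 ± 0.09 at 42 days against chow (limma, adjusted p = 0.112 and 0.731), and it was one of the 5 that rose from 5 to 42 days (0.32 ± 0.09, adjusted p = 0.0451). The other such factor, Mkx, was dim, at percentile 3.41 of the genes' signal.

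Of 9 fibroblast markers, 1 (11.1%) rose at 5 days and 2 (22.2%) at 42 days, where 3.8% and 5.56% of all genes passed, with medians of 0.25 and 0.23. Their mean ran from 10.67 to 11.08 on chow, 10.91 to 11.27 at 5 days and 11.09 to 11.25 at 42 days. Of 10 endothelial markers 2 (20%) rose at 5 days, 1 (10%) rose at 42 days and 1 (10%) fell from 5 to 42 days, and their mean ran from 9.20 to 9.34, 9.28 to 9.62 and 9.25 to 9.39. As in the main chains, 5-day replicate 3 was lowest of its group in 8 of 10 tendon and 7 of 9 fibroblast markers. By list mean it was also lowest for the endothelial (9.28), smooth muscle and pericyte (10.63), Schwann cell (9.68) and chondrocyte (6.408) markers. The same held for every partner list, but not for the macrophage, adipocyte or skeletal muscle markers. The part of any of these cell types in the collagen values was not tested.

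Of 8 smooth muscle and pericyte markers 1 (12.5%) rose at each time (Myh11, 0.36 ± 0.09 and 0.32 ± 0.09). Of 6 adipocyte markers 2 (33.3%, where 2.2% of all genes fell) fell at 5 days (Cidec, -1.33 ± 0.34, and Retn, -0.97 ± 0.21) and 0 passed at 42 days, with 3 lower at an unadjusted p under 0.05 by limma, as 13.4% of all genes were. Of 6 macrophage markers 1 (16.7%) fell at 5 days and 1 rose at 42 days. None of 3 Schwann cell markers passed against chow, nor at an unadjusted p under 0.05 by limma. The 6 chondrocyte markers averaged 6.42 to 6.49 on chow, 6.41 to 6.46 at 5 days and 6.501 to 6.577 at 42 days. These levels are near the lower quartile of the arrays (6.44 to 6.55), and 0 markers passed. By limma's unadjusted p under 0.05, 1 was lower at 5 days and 1 higher at 42 days, as 14.1% and 8.43% of all genes were.

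**Figure D5:**
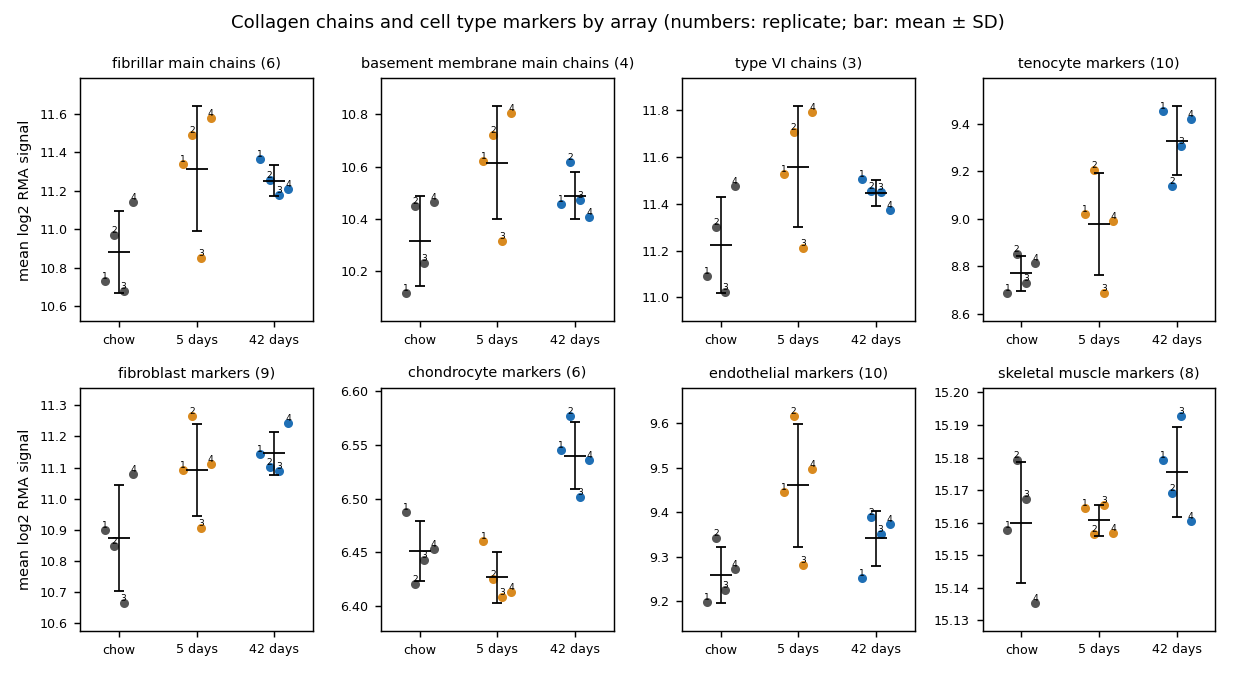
Mean log2 RMA signal (y axis) of collagen chain groups and cell type marker lists in each array, by group (x axis), with replicate numbers and mean ± SD (n = 4); the number of genes is in each title. The tendon cell markers lie at 9.14 to 9.45 at 42 days, above the chow arrays at 8.69 to 8.85.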

How the data were processed

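Muscle RNA of 12 samples, 4 for each diet group named in their labels, was measured on Affymetrix arrays. The authors deposited log2 values per probe set, made with RMA per the submitters' processing notes, with no version given; the log2 scale follows from the values (3.67 to 15.459). RMA normalizes between arrays, so shifts common to most genes can be lost. Of 45098 probe sets, 61 were controls, 34945 had 1 gene symbol in GEO's platform annotation, 932 several and 9160 none. Only those with 1 symbol were used, by the probe set with the highest mean for the 9010 genes with several; 34741 matched RefSeq by Entrez identifier with 0 symbols changed. The genome build of the files is not given in the sources used here, so positions come from RefSeq and serve only for its promoter windows and for which genes are neighbours.

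A model with a mean for each group was fitted to 18193 genes on all 12 arrays by limma 3.58.1 (R 4.3.3) with eBayes shrinkage (9 residual and 5.884 prior degrees of freedom). The 3 contrasts were two-sided, adjusted by Benjamini-Hochberg over all genes, and read at an adjusted p under 0.05. Errors are SE for differences and SD for levels, and a fold is 2 raised to the absolute log2 difference. The fit was tested on simulated data.

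The collagen genes, their types, the 13 main chains and the partner and marker lists were chosen with earlier results of these data known. Named were collagen genes past any test, the main chains, the lowest and highest of each contrast, and up to 4 partners per list and contrast past the test with the smallest p. Alternatives were other normalizations, a filter on dim genes, other probe set rules, the 8 arrays compared, array weights, another prior, an adjusted p under 0.1, a block for the replicate number, and each array left out. They were read for the collagen genes and for the count over all genes, not for single partner or marker genes. Replicate numbers were not taken as pairs in the main fit. Of 12 pairs sharing a number, 3 had a correlation of deviations over 0.1, and 4 of 12 arrays were closest to one with their own number. The 3 were all the pairs of replicate 1, at 0.208 to 0.221. Replicate 1 also had the highest array median of each group (7.692 on chow, 7.6315 at 5 days and 7.702 at 42 days). What the replicate 1 arrays share was not tested.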

Additional observations from a re-analysis of the deposited data

Results flagged for a closer look

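Single arrays stood apart in 5 of the 57 groups of 4 checked for the named collagen genes, by the gap to the nearest array against the group's range, where chance gives about 1 in 20. Col1a1 was highest in 42-day replicate 1, at 11.83 with the nearest array at 11.68, and Col6a1 was highest in the same array, at 11.52 with the nearest at 11.42. Col18a1 was highest in 42-day replicate 2, at 9.03 with the nearest at 8.95. Col5a2 was highest in chow replicate 4, at 10.31 with the nearest at 10.07. Col7a1 was highest in 5-day replicate 3, at 9.18 with the nearest at 9.04, the array in which the main chains were lowest of their group.

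The change at 42 days differed from the change at 5 days, by limma's test of the difference, in 4 collagen genes. The 42-day minus 5-day difference was -0.44 for Col22a1, 0.24 for Col25a1, 0.28 for Col12a1 and 0.30 for Col4a6. Since both changes share the chow arrays, this is the same test as 42 against 5 days.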

How the results depend on the processing

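Col12a1's 42-day rise was kept under every alternative except the mean of its probe sets and its most variable probe set. Its log2 fold changes there were 0.09 and 0.13. Col22a1's fall from 5 to 42 days was kept under all but 2 of the single arrays left out. Over the named collagen genes, single-gene values kept direction and side of the threshold in 582 cases, gained it in 35, lost it in 33 and reversed in 28. Of the fits without single arrays, only those with the lowest and highest value of each gene and comparison were counted. Calls that ended without other arrays are outside these numbers and are given with each gene. The collagen count of 1 at 5 days became 11 with arrays centred on the median, 3 without the 40% dimmest genes, 0 with the mean of probe sets, the 8 arrays alone or array weights, 2 with a trended and robust prior, 12 at an adjusted p under 0.1, and 0 to 11 without single arrays. With the replicate number as a block it was 10 (8 higher, 2 lower); the block moved no other count over 1.5 times. Quantile normalization and cyclic loess called Col11a1 in place of Col5a2. The 42-day count of 4 became 2 with centring, 7 with the most variable probe set, and 1 to 6 without single arrays. The count of 4 between 42 and 5 days became 2 with quantile normalization, cyclic loess or the most variable probe set, 1 with the mean of probe sets, and 0 to 5 without single arrays. The cause was not tested.

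Over all genes, 692 passed at 5 days (42.1% higher), against 208 with quantile normalization, 1353 with centring (84.3% higher), 207 with loess, 7 with 8 arrays, 159 with weights, 2073 at an adjusted p under 0.1, and 6 to 790 without single arrays. At 42 days 1011 passed (38.2% higher), against 2536 with the most variable probe set (57.5% higher), 1872 at an adjusted p under 0.1, and 228 to 1079 without single arrays. Between the times 1550 passed (32.3% higher), against 371 with quantile normalization, 3465 with centring (7.45% higher), 363 with loess (44.4% higher), 529 with the mean of probe sets, 3682 at an adjusted p under 0.1, and 0 to 1972 without single arrays.

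None of the reversed values passed the test. Between 42 and 5 days they were, with the most variable probe set, Col4a1 (0.065), Col1a2 (-0.0018), Col5a1 (0.014) and Col12a1 (-0.023); with quantile normalization Col5a2 (0.070), Col6a1 (0.022) and Col6a3 (0.037); with loess Col3a1 (0.020), Col5a2 (0.077), Col6a1 (0.024) and Col6a3 (0.035); with centring Col18a1 (-0.041) and Col1a1 (-0.047). Col1a1 was also at -0.15 with the mean of probe sets and -0.015 with weights. Without single arrays they ran from -0.20 to 0.038 for Col15a1, -0.013 to 0.043 for Col18a1, -0.24 to 0.14 for Col1a1, -0.050 to 0.20 for Col1a2, -0.18 to 0.041 for Col3a1, -0.14 to 0.048 for Col5a2, -0.12 to 0.0042 for Col24a1 and -0.20 to 0.014 for Col6a1. Against chow at 42 days, Col4a6 was at -0.0009 with the mean of probe sets, and Col5a3 at -0.037 with weights and -0.091 to 0.083 without single arrays. At 5 days Col12a1 was at -0.026 with the mean of probe sets and Col24a1 at -0.26 to 0.014 without single arrays. With 4 arrays a group and dim probe sets for 7 chains, small differences were not resolved.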
